A study of Mus musculus with 1 sample.

Results

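The serum- and glucocorticoid-regulated kinases (SGKs), the AKT kinases and the enzymes that switch them on were described in primary glia from the mouse ventral midbrain (VM). The set held 9 genes, taken by their symbols: Sgk1, Sgk2, Sgk3, Akt1, Akt2, Pdpk1, Rictor, Mtor and Nedd4l. Each had a single row among the 23282 rows of the table. The study cultured mixed glia from VMs of mouse or rat pups and asked what inhibition of SGK1 does to such glia. The labels place the pups of this culture at postnatal day 5, and they were taken here as ICR (CD-1) outbred mice. The paper names ICR for its mouse embryos and adult model mice, and gives no strain for the glial cultures. The library analysed here was the control, which the study describes as treated with vehicle (DMSO), and it was the only library analysed. It had no replicate and no second group, so the values below are a description of 1 culture without error, test or fold change between conditions.

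SGK and AKT kinases are close relatives in the AGC class of serine/threonine kinases and are switched on in the same way. Growth factors activate phosphoinositide 3-kinase (PI3K), mTOR complex 2 then phosphorylates a site near the tail of the kinase, and the kinase PDK1, encoded by Pdpk1, phosphorylates its activation loop. AKT is drawn to the membrane by the lipid that PI3K makes, whereas SGK1 is controlled to a large extent by how much of its short-lived mRNA and protein a cell makes, with serum and glucocorticoids among the inducers. NEDD4-2, encoded by Nedd4l, is a ubiquitin ligase that removes ion channels such as the epithelial sodium channel from the cell surface, and phosphorylation by SGK1 restrains it.

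The unit was the normalized read count per gene, as the authors name it, and the values summed to 27569507. How many reads were sequenced is unknown. A gene was taken as detected at a value of 10 or more, which 67.2% of all rows reached, and the median of detected genes was 469. To compare genes with each other, values were divided by the length of all annotated exons of the gene in kb (union of exons), which gave a median of 102 per kb for the 15486 detected genes with a length. The labelled cell type was checked with markers. All 10 astrocyte markers were detected at 142 to 4083 per kb, and all 10 microglia markers at 241 to 31364 per kb. The culture also held RNA of mesenchymal markers, 7 of 7 at 186 to 12067 per kb, and of 8 of 8 oligodendrocyte lineage markers at 15.7 to 2945 per kb. Neuron markers reached at most 66.4 per kb and endothelial markers 13.2 per kb, with Slc17a6 and Tek listed at 0. In a bulk library of this kind, fewer cells of one type and less RNA per cell cannot be told apart, and no level below can be assigned to astrocytes or microglia.

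All 9 kinase axis genes were detected, against 67.2% of all rows. Their deposited values spanned 13 to 8212 with a median of 864, and 6 of the 9 lay above the median of detected genes. Per kb of exon the order was Akt1 (2004), Sgk1 (1245), Akt2 (228), Mtor (159), Sgk3 (53.6), Nedd4l (48.9), Rictor (14.7), Pdpk1 (9.33) and Sgk2 (3.81). On this scale 4 were above and 5 below the median of detected genes, and the members' own median was 53.6. The first 3 places and the last were the same with the 4 lengths tried and without division by length. Mtor, Sgk3 and Nedd4l exchanged places 4 to 6, and Rictor and Pdpk1 exchanged places 7 and 8. With no replicate, the spread that neighbours in this order would show between cultures is unknown.

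**Figure D1:**
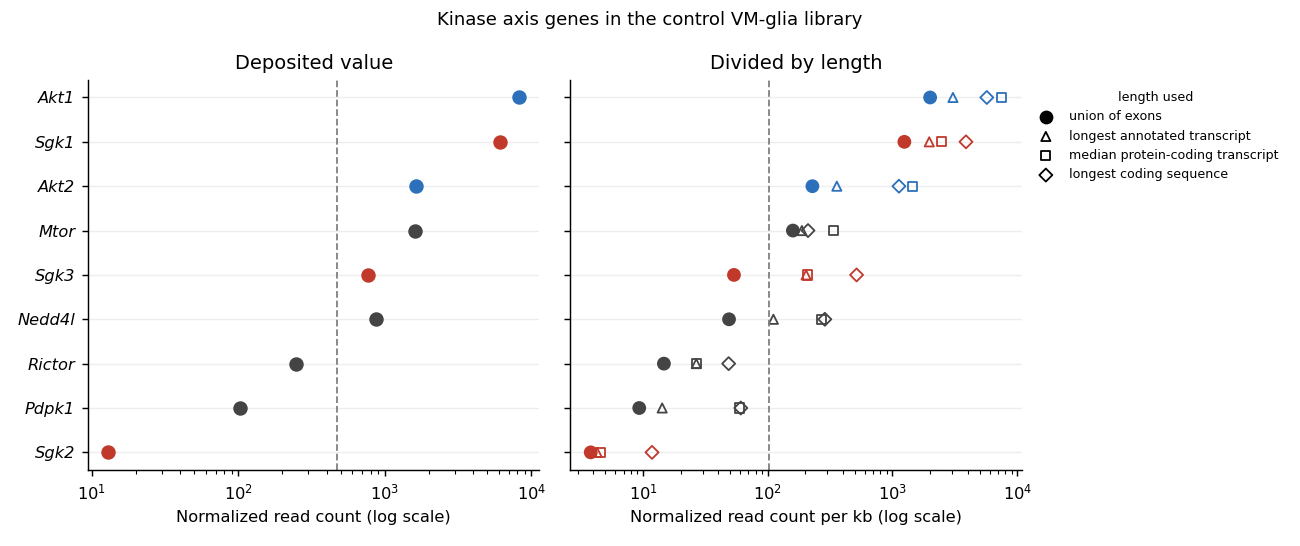
Deposited normalized read counts (left, log axis) and the same values divided by 4 definitions of gene length (right, log axis) for the 9 genes in the control library, with SGK genes in red and AKT genes in blue. The dashed lines are the medians of detected genes (469, and 102 per kb for the union of exons), and Akt1, Sgk1 and Akt2 lead under every length while Sgk2 is lowest.

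Sgk1, the member that the study inhibited, had a value of 6105, or 221 per 1000000 of the sum. Per kb of exon its level was above 92.5% of detected genes, 12.2 times their median. Sgk1 (ENSMUSG00000019970.15) lies on the plus strand of chromosome 10 from 21882184 to 21999903 in GRCm38, and its exons overlap no other gene in GENCODE M21. Of its 50-base words 0.243% were also in transcripts of other genes, and of its 100-base words none. Sgk1 was 133 times Pdpk1 and 84.7 times Rictor per kb, the genes for the kinase and the complex subunit that act on it. Over the 4 lengths and without division the ratio to Rictor ran from 24.5 to 93.0.

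The other 2 SGK genes were far lower. Sgk3, which encodes the SGK with a lipid-binding domain that places it on endosomes, had a value of 767 and a level of 53.6 per kb, above 35.7% of detected genes. By deposited value it was above 61.2%. Sgk2, the remaining SGK gene, had a value of 13, just inside the minimum of 10, and a level of 3.81 per kb. Sgk1 held 95.6% of the summed SGK level per kb, Sgk3 4.11% and Sgk2 0.293%. Sgk3 is the member most affected by the choice of length, because its exons cover 14311 bases while its longest annotated transcript has 3779. Its share ran up to 11.7% with the longest coding sequence, and that of Sgk1 then fell to 88.0%. Across the 4 lengths and without division, Sgk1 was 7.53 to 23.2 times Sgk3 and 327 to 548 times Sgk2.

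**Figure D2:**
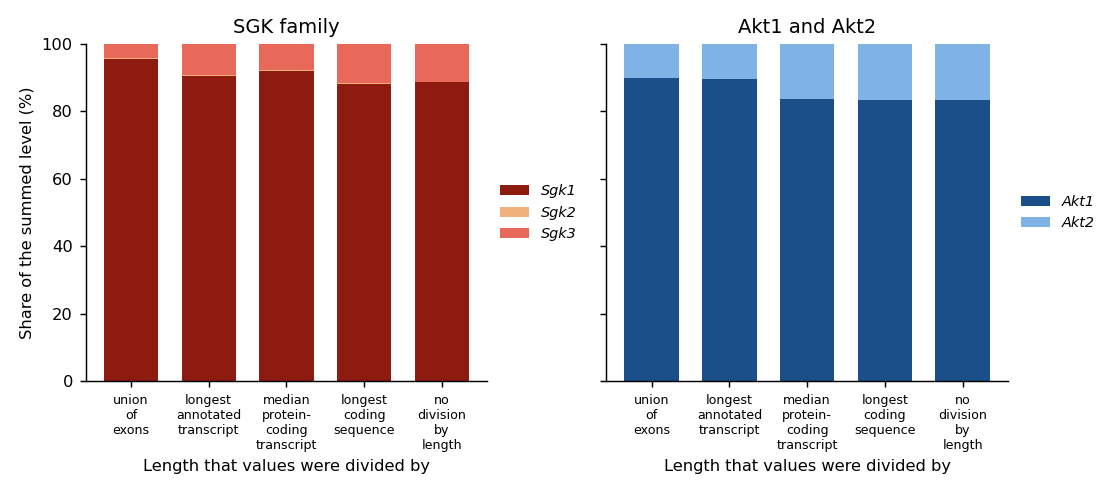
Share of each gene in the summed level of Sgk1, Sgk2 and Sgk3 (left) and of Akt1 and Akt2 (right) (percent, stacked to 100) in the control library, after division by 4 definitions of length or none. Sgk1 holds 88.0 to 95.6% of the SGK bars and Akt1 83.5 to 89.8% of the bars shared with Akt2.

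The table gave 1 value per gene, so the balance of Sgk1 transcripts could not be read from it. GENCODE lists 13 Sgk1 transcripts, 9 of them protein-coding, with 7 different starts. The principal transcript starts at 21994666 and has a coding sequence of 1293 bases, while the longest one starts 112 kb upstream and has a coding sequence of 1572 bases. Such alternative first exons give SGK1 proteins that differ at the amino end, the part that carries the signal for rapid breakdown. The value of 6105 is a total for the gene and does not separate these transcripts. Whether the annotation that the study counted over holds each of them was not examined.

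The sequences before the Sgk1 starts differed from each other in composition. RefSeq lists 6 starts on GRCm38.p6, and the 250 bases before each were compared with the 32851 such windows in the RefSeq table, which does not hold every gene. The window before the start at 21994666 had 70.4% G and C, above 91.2% of all windows, and 22 CG pairs. The other 5 windows had 43.6 to 48.4% G and C and 2 to 7 CG pairs, against medians of 52.4% and 6. Motifs were searched on both strands, namely the TATA box TATAAA (held by 12.4% of all windows), the GC box GGGCGG (32.7%), CCAAT (33.8%), the NGFI-B element AAAGGTCA to which Nurr1 can bind (1.34%), and TGTTCT, the hexamer that the glucocorticoid receptor binds in pairs (16.1%). AAAGGTCA was in none of the 6 windows. In the window before the start at 21992223, TATAAA lay at positions -28 to -23 from that start. The 2 windows shown here are those of the principal start and of the start 776 bases upstream of it. The first had 4 GC boxes and 1 match to TATAAA, at positions -11 to -6. The second had 1 GC box and 3 receptor hexamers. They are printed 5′ to 3′ on the plus strand, and capitals mark the motifs.
Sgk1 chr10:21994416-21994665, before the start at 21994666: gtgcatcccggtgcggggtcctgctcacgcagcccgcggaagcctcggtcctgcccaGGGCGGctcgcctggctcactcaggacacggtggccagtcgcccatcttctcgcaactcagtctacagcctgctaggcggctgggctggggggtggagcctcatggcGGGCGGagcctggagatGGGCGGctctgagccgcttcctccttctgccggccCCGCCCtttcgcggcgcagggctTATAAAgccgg
Sgk1 chr10:21993640-21993889, before the start at 21993890: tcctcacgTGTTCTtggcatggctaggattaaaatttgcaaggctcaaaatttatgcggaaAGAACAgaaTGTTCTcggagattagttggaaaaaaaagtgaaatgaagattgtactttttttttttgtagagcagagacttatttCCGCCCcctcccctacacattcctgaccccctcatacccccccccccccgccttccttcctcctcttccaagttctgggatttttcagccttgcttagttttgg

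In the second of these windows AGAACA, which is the hexamer read from the other strand, is followed after 3 bases by TGTTCT. The pair forms the palindrome known as a glucocorticoid response element, at chr10:21993701-21993715, which begins at position -189 from the start at 21993890 and at position -965 from the principal start. Of the 32851 windows 3 held it, and the other 2 belonged to Acnat2 and Gm35041. This search was added after the positions of the hexamers had been seen. A match of letters is not a bound site, and the library holds no measurement of binding.

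Akt1 was the highest of the 9 genes. AKT1 is widely tied to survival and growth, and AKT2 to glucose handling. Akt1 had a value of 8212 and a level of 2004 per kb, above 95.4% of detected genes. Akt2 had a value of 1626 and 228 per kb, above 68.2%. Of the summed level of Akt1 and Akt2 per kb, Akt1 held 89.8% and Akt2 10.2%. Akt1 was 8.79 times Akt2, and 5.05 to 8.79 times over the 4 lengths and without division.

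Akt1 (ENSMUSG00000001729.14) lies on the minus strand of chromosome 12 from 112653821 to 112674884, and shared no 50-base word with another gene. Akt2 (ENSMUSG00000004056.15) lies on the plus strand of chromosome 7 from 27591552 to 27640826, and 9.76% of its 50-base words, or 4.01% of its 100-base words, are also in the pseudogene Akt2-ps. Some Akt2 reads could therefore be placed at either locus, and how the authors handled such reads is not stated. A window rich in G and C was found before starts of higher and lower genes alike, at 70.4% for Sgk1, 81.2% for Rictor and 69.6% for Pdpk1, while the 4 windows of Akt2 had 48.8 to 58.8%. The richer of the 2 Akt1 windows had 78.4% G and C, above 98.1% of all windows, with 31 CG pairs and 4 matches to the GC box, the last 2 of which overlap. It held no TATAAA. It is shown for comparison with Sgk1, on the minus strand and with the GC boxes in capitals.
Akt1 chr12:112674277-112674526, before the start at 112674276: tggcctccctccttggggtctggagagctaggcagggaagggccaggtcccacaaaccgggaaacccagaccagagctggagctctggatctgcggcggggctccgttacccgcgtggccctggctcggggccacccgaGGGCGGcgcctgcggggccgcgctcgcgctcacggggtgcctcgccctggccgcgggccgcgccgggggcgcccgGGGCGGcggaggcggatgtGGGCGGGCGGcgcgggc

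Sgk1, Sgk2 and Sgk3 summed to 1303 per kb, and Akt1 and Akt2 to 2232. Akt1 was 1.61 times Sgk1 per kb. It was 1.35 times Sgk1 in deposited values and 2.998 times with the median length of protein-coding transcripts, so it was the higher under each length. Both stood near the top of their kinase class. Of 45 other AGC kinase genes 0 exceeded Akt1 per kb and 1 exceeded Sgk1, namely Grk2, a kinase that desensitizes G protein-coupled receptors, at 1386 per kb. Grk2 was followed by Prkcd, a protein kinase C, at 889 and Prkaca, a catalytic subunit of protein kinase A, at 877 per kb. Per kb Akt2 had 12 of the 45 above it, Sgk3 29, Pdpk1 40 and Sgk2 44. Among all 51 AGC kinase genes, Sgk3 was at place 33 per kb and 26 by deposited value, and Prkaca at 5 and 12. Akt1 and Sgk1 were at places 1 and 3 on both scales. The 45 genes were all detected, with a median of 98.7 per kb.

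**Figure D3:**
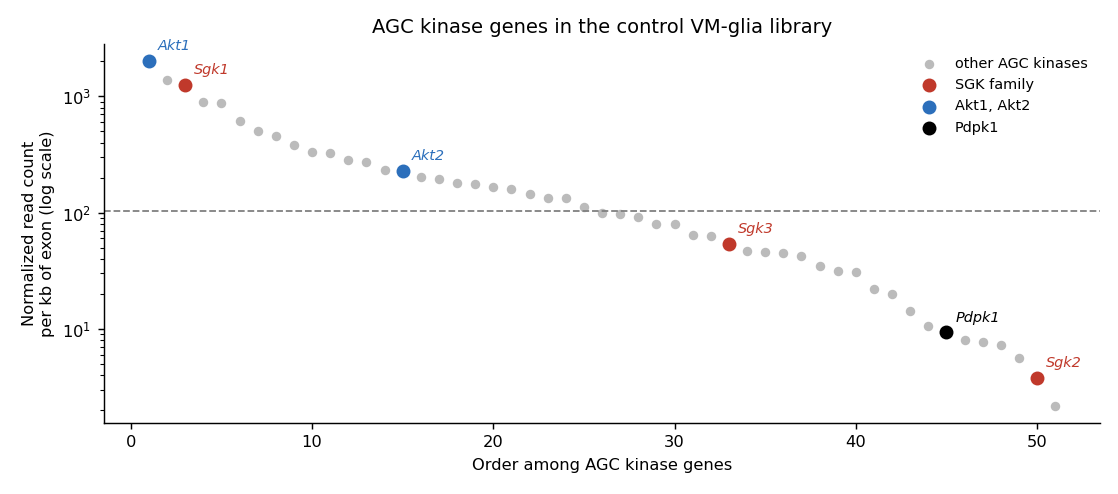
Normalized read count per kb of exon (log axis) of 51 AGC kinase genes in the control library, ordered from high to low, with the median of detected genes as a dashed line. Akt1 is at place 1 and Sgk1 at place 3, while Pdpk1 is at place 45 and Sgk2 at place 50.

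The genes for PDK1 and for the defining subunit of mTOR complex 2 were lower than Akt1, Akt2, Sgk1 and Sgk3. Pdpk1, whose product phosphorylates the activation loop of SGK and AKT alike, had a value of 102 and 9.33 per kb, above 10.5% of detected genes. Without division by length Pdpk1 was above 23.4%. It lies on the minus strand of chromosome 17 from 24073680 to 24150924, and GENCODE places no other exon on its exons. Only 0.603% of its 50-base words and none of its 100-base words were found in transcripts of other genes. Akt1 was 80.5 to 215 times Pdpk1 and Sgk1 42.1 to 138 times, over the 4 lengths and without division.

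The mTOR kinase gene was well above the gene that defines mTOR complex 2. Mtor (chromosome 4, plus strand, 148448611 to 148557683) had a value of 1608 and 159 per kb, above 60.0% of detected genes. Rictor (chromosome 15, plus strand, 6708379 to 6800401), whose product makes mTOR complex 2 what it is, had a value of 249 and 14.7 per kb, above 15.5%. In deposited values Mtor was above 78.9% and Rictor above 37.4%. Neither gene shared a 50-base word with another. Mtor was 4.33 to 12.6 times Rictor over the lengths. The corresponding subunit of mTOR complex 1, Rptor, had a value of 1400 and 104 per kb, which was 7.07 times Rictor, and 5.62 to 14.7 times over the lengths and without division. Rptor was thus the higher gene under each of these scales.

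The rest of the mTOR list spread on both sides of the median of detected genes, and its 9 genes, Mtor and Rictor included, were all detected with a median of 79.6 per kb. Mapkap1, which encodes the complex 2 subunit SIN1, was highest at 337 per kb. Prr5, a further complex 2 subunit, was at 240 and its relative Prr5l at 54.4 per kb. Mlst8, a subunit of both complexes, was at 79.6 per kb, and Deptor, an inhibitor of mTOR, at 26.03. The assembly factors Tti1 and Telo2 were at 108.5 and 50.3 per kb. Akt1s1, an inhibitory complex 1 subunit and AKT substrate, was at 404 per kb. Per kb Rictor was the lowest of the 9, while in deposited values Deptor (231) was below Rictor (249).

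PI3K and the lipid phosphatases set the lipid signal above AKT and PDK1, and the protein phosphatases of the pathway act on kinases such as AKT. Of 14 PI3K genes 13 were detected, with a median of 191 per kb. The highest were the regulatory subunits Pik3r5 (1392 per kb), a partner of the gamma catalytic subunit, and Pik3r2 (687), followed by the class II enzyme Pik3c2b (301). The lowest were Pik3c2g at a value of 6, Pik3c2a at 64.0 and Pik3r4 at 78.2 per kb. All 14 genes of lipid and protein phosphatases were detected, with a median of 198 per kb. Inpp5d, which encodes the lipid phosphatase SHIP1 of blood-lineage cells, was highest at 1224 per kb, with the protein phosphatase subunit gene Ppp2r5d at 642 and Inppl1, the gene for the widely expressed lipid phosphatase SHIP2, at 497. Inpp4b (17.0), Phlpp2 (27.3) and Inpp4a (32.9) were lowest. Of the genes that link AKT to mTOR complex 1, Rheb was at 386, Tsc2 at 198, Tbc1d7 at 79.4, Tsc1 at 61.1 and Rhebl1 at 11.9 per kb.

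Among direct targets, Nedd4l had a value of 864 and 48.9 per kb, above 34.1% of detected genes. Its deposited value was above 64.3% of them. Its 19 protein-coding transcripts have a median of 3182 bases, while its exons cover 17659, and with the longest coding sequence its level was 287 per kb. It lies on the plus strand of chromosome 18 from 64887705 to 65217828, and 277 of its exon bases overlap the antisense gene A330084C13Rik. Its closest relative Nedd4, a ligase with the same domain layout, had a value of 8036 and 732 per kb. Nedd4 was 14.97 times Nedd4l per kb, and 8.04 to 14.97 times over the lengths and without division. Of the 11 genes of the NEDD4 list 10 were detected, with a median of 140 per kb. Per kb of the union of exons, Nedd4l was below the ligases Wwp1 (488), Smurf1 (311), Wwp2 (245), Smurf2 (140) and Itch (137). It was above the neuronal ligase Hecw1 (2.11). In deposited values Nedd4l and Smurf2 were equal at 864. Hecw2 had a value of 6. The adaptors that recruit these ligases, Ndfip1 and Ndfip2, were at 956 and 84.4 per kb.

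The ion channel best known as a target of SGK1 and NEDD4-2 had low values. Scnn1a was at a value of 28, and Scnn1b and Scnn1g were listed at 0. A list of other SGK and AKT substrates and their relatives had 17 of 17 genes detected and a median of 129 per kb. Ndrg2, an astrocyte-rich relative of the SGK1 substrate NDRG1, was highest at 933 per kb, with Gsk3a (555), a kinase of glycogen and Wnt signaling, and Akt1s1 (404) next. Foxo6 (11.9), Ndrg4 (15.5) and Wnk4 (16.6) were lowest. Of the chaperone system that folds these kinases, the HSP90 genes Hsp90ab1 (18408 per kb) and Hsp90aa1 (7546) were above each of the 9 kinase axis genes. The kinase cochaperone gene Cdc37, at 1075 per kb, was below Akt1 and Sgk1. In deposited values the order was reversed, with Cdc37 at 8812, Akt1 at 8212 and Sgk1 at 6105. Of the turnover genes, the ligase gene Stub1 was at 1408, the deubiquitinase gene Usp8 at 989 and the ligase gene Syvn1, whose product marks SGK1 for breakdown, at 169 per kb. Over all lists 126 of 130 genes were detected, against 67.2% of rows.

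**Figure D4:**
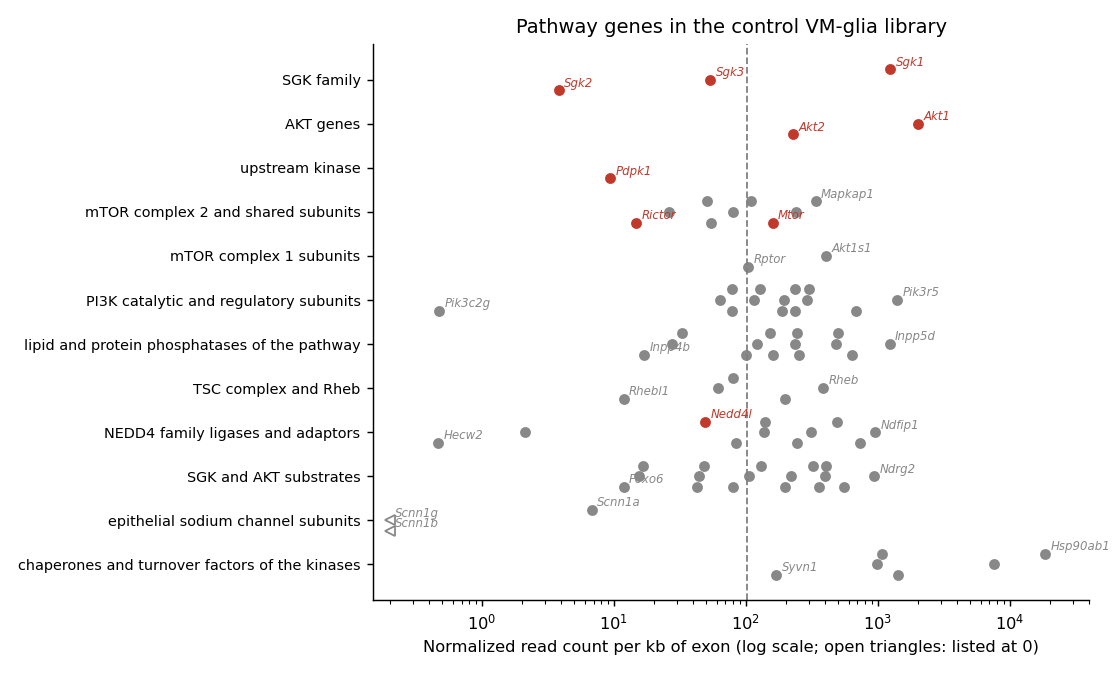
Normalized read count per kb of exon (log axis) of the genes in each pathway list in the control library, with the 9 kinase axis genes in red, the highest and lowest of each list labelled and genes listed at 0 as open triangles at the left edge. Rictor, at 14.7 per kb, is the lowest of its list, and the chaperone genes Hsp90ab1 and Hsp90aa1 are the highest of all genes shown.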

How the data were processed

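Total RNA of 1 control library of VM-derived mixed glia was analysed. According to the study's methods, the authors trimmed at a quality of 20, used STAR to align reads to GRCm38/mm10, and ran HTSeq-count over the exons of RefSeq Release 105. The methods also state that FPKM, a unit divided by exon length and by library size, was calculated. The submitters' processing notes name mm10, TopHat and edgeR, with no role given. Which of these tools gave the deposited values is not stated. The deposited values, whole numbers that the authors call normalized read counts, were handled as a score, without intervals or count tests. Their scaling, the strand setting and the handling of multi-mapped reads are not given in the sources used here. Whether length had entered the deposited values is not stated either, and if it had, division by length would count it again. A scaling by 1 factor for all genes would change none of the values per 1000000, ratios or shares within the library. One that acted differently on different genes could change all of them.

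Values were divided by the union of annotated exons in GENCODE M21 (GRCm38), which 22900 rows (98.4%) matched by symbol or older symbol. By its methods the study counted over RefSeq exons, so the length used here can differ from the one counted. Division by length assumes even coverage along transcripts, which gene totals cannot show. Alternatives were the longest transcript, the median protein-coding transcript (incomplete models included), the longest coding sequence, no division, minimum values of 1, 3 and 100, and sums without Rn45s or the 10 highest rows. Shared sequence was counted as 50- and 100-base words found in GENCODE transcripts of other genes on either strand. The 250-base windows came from RefSeq (GRCm38.p6), with 16 windows for 6 of the 9 genes. Nedd4l was left out of these, and Sgk2 and Sgk3 had no entry. The genes named were all 9 members, each gene of lists of up to 11, and in longer lists the 3 highest, the 3 lowest and any at 0. Of other AGC kinases only the 3 highest per kb were named. A gene that the lists would hold is not reported here. Grk2 and Grk3 were matched through older symbols. The members and lists were chosen with earlier results of these data known. The share calculation was tested on simulated levels and lengths, and the percentile calculation on values drawn from this library. Both tests checked the arithmetic only. Python 3.11.15, numpy 2.4.6, pandas 2.3.3 and matplotlib 3.10.9 were used.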

Additional observations from a re-analysis of the deposited data

How the results depend on the processing

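With no replicate and no counting interval, a value was taken to have moved when it changed by more than 1.5 times. Alternatives were tried for the shares, the order, the detected members and Sgk1 per 1000000. They were also tried for the ratios of Sgk1 to Akt1, Rictor to Rptor and Nedd4l to Nedd4. Of the 41 alternatives 28 did not move and 13 did, and none of these ratios crossed 1. Large shares, the detected members and the order, which kept 33 to 35 of 36 member pairs, could hardly move by this rule. Other ratios did cross 1. Mtor to Sgk3 was 2.97 per kb of exon and 0.408 with the longest coding sequence. Rictor to Pdpk1 was 1.58 per kb of exon and 0.453 with the median protein-coding transcript. The Sgk3 share of the SGK level was 9.31% with the longest annotated transcript, 7.70% with the median protein-coding transcript, 11.7% with the longest coding sequence and 11.1% without division, against 4.11%. The Sgk2 share was 0.168% with the median protein-coding transcript and 0.189% without division, against 0.293%. The Akt2 share of the Akt1 and Akt2 level was 16.2%, 16.5% and 16.5% with the median protein-coding transcript, the longest coding sequence and no division, against 10.2%. With the median protein-coding transcript the ratio of Sgk1 to Akt1 was 0.334 against 0.621, of Rictor to Rptor 0.0679 against 0.142, and of Nedd4l to Nedd4 0.124 against 0.0668. Without division the ratio of Nedd4l to Nedd4 was 0.108. These shifts follow from the lengths themselves, since the values were the same. At a minimum value of 100 the detected members were 8, without Sgk2. Sgk1 per 1000000 ran from 221 to 256 over the sums tried. No paired analysis was possible because there was 1 library and no test. The lack of a replicate limits each value to this culture, and the value of Sgk2 lies close to the detection minimum.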
